A study of Mus musculus with 4 samples.

Results

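The HSP70 and HSP110 chaperone family was followed through Th17 cultures of mouse CD4+ T cells by 10 genes chosen by symbol. They were Hspa8, Hspa1a, Hspa1b, Hspa9 and Hspa14 of the HSP70 group, Hsph1, Hspa4 and Hspa4l of the HSP110 group, the co-chaperone gene Bag3 and the regulator gene Hsf1. All 10 were found among the 19555 rows of the deposited tables, and 9 of them reached the mean of 1 RPKM (reads scaled for exon length and library size) that admitted 13715 rows to the comparisons; Hspa1a did not. The libraries came from naive CD4+ T cells of spleen and lymph nodes of C57BL/6 mice, activated and kept for 3 days in vitro with IL-6 and TGF-β1. The groups were a Smad4 KO genotype at 39.5 °C, a Smad4 KO genotype at 37 °C, wild type (WT) at 39.5 °C and WT at 37 °C, with 1 library each. The allele, the Cre driver if any, and the number of mice behind a library were not stated in the labels. The questions addressed were what fever-range heat does to Th17 cells and how far that depends on Smad4, the common partner of the SMAD proteins in TGF-β signalling.

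HSP70 proteins bind exposed hydrophobic stretches of unfolded clients in cycles of ATP hydrolysis. J-domain proteins deliver clients and start the hydrolysis, and HSP110 and BAG proteins release ADP so that the cycle can begin again. HSF1 is held inactive by chaperones and, when heat or unfolded protein draws these away, binds heat shock elements in the promoters of the inducible chaperone genes. T cells also raise chaperone synthesis when they are activated and begin to grow.

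Recovered reads summed to between 18050832 and 18476668 per library. Smad4 was at 21.3 and 20.7 RPKM in the KO-labelled libraries at 39.5 and 37 °C, against 14.2 and 14.0 RPKM in WT at the same temperatures. The targeted gene was thus higher in the libraries labelled Smad4 KO than in WT, so these are called KO-labelled libraries throughout. All 7 T cell markers and all 7 Th17 markers were measured. Summed T cell markers lay between 1782 and 1925 RPKM. Th17 markers summed to 419.8 and 267 RPKM in the KO-labelled libraries at 39.5 and 37 °C, against 2124 and 708 RPKM in WT. Summed myeloid markers lay between 2.77 and 8.47 RPKM, most of it Cd68, and the single B cell marker measured, Cd79a, at 0.485 RPKM or less. In bulk RNA, fewer cells of a type and less RNA per cell cannot be told apart.

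Hspa8 encodes HSC70, the constitutive cytosolic HSP70 that carries most of a cell's everyday folding load. It was the most abundant member in every library and was lower at 39.5 °C in both genotypes. Hspa8 stood at 245 and 466 RPKM in the KO-labelled libraries at 39.5 and 37 °C. In WT, 307 RPKM were measured at 39.5 °C and 795 at 37 °C. The WT library at 37 °C was therefore the highest of the 4, and the KO-labelled library at 39.5 °C the lowest. Among all rows ordered by RPKM, Hspa8 ranked 369 and 188 in the KO-labelled libraries at 39.5 and 37 °C, against 229 and 69 in WT. The ratio of 39.5 to 37 °C was 0.527 (95% interval 0.518 to 0.536, counting error only) with the KO label. In WT it was 0.387 (0.381 to 0.392). The shared change with temperature was log2 −1.15 ± 0.14 (SE), lower at 39.5 °C in both pairs, and missed the threshold (limma, adjusted p = 0.073). It passed in 3 of the 6 alternatives, with adjusted p from 0.0034 to 0.302 over all of them. Between genotypes, the ratio of the KO label to WT was 0.799 (0.784 to 0.814) at 39.5 °C and 0.586 (0.579 to 0.594) at 37 °C. The shared change with the KO label was log2 −0.55 ± 0.14 (SE) and did not pass (limma, adjusted p = 0.058). It passed in 3 of the 6 alternatives, with adjusted p from 0.017 to 0.126.

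**Figure D1:**
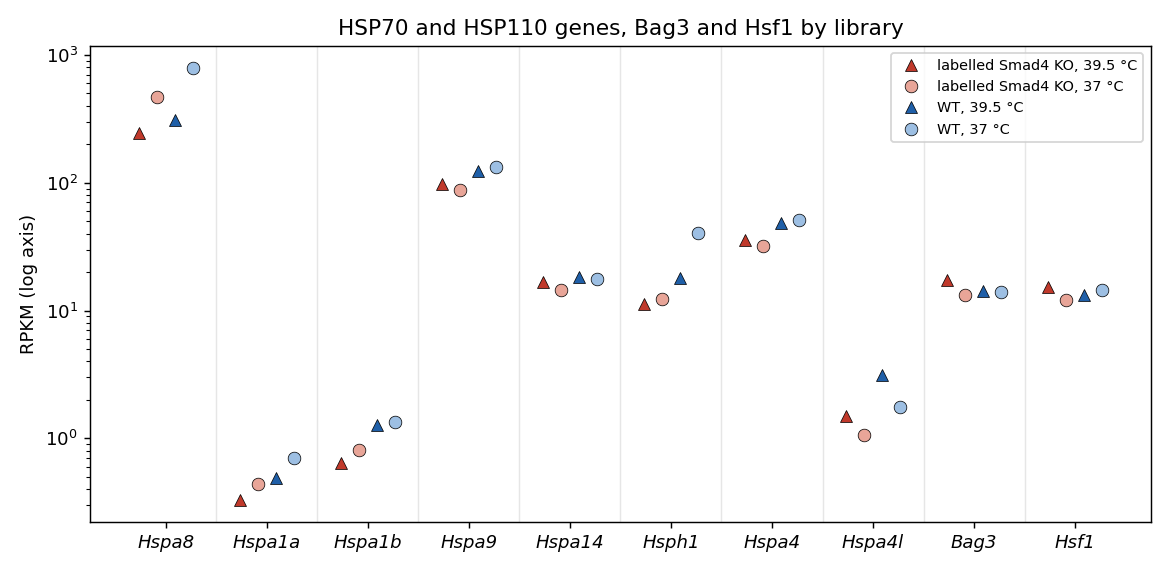
RPKM on a log axis for the 10 genes (horizontal axis), with 1 point per library. Hspa8 lies between 245 and 795 RPKM, and Hspa1a and Hspa1b lie at or below 1.35 RPKM in every library.

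Hspa8 has processed pseudogenes, which are retrotransposed copies without introns, and part of their sequence is identical to it. In GENCODE vM21, 10 processed pseudogenes shared at least 20 windows of 50 bases with an Hspa8 transcript. Gm15459 shared 86.8% of its own windows and Gm8355 shared 57.0%. Neither symbol is among the row names. The comparison set was the 6412 rows outside the members whose mean reached 10 RPKM. The 5 with the pattern nearest to Hspa8 carried clone-based names absent from that annotation: RP23-299H4.3, RP24-325G24.1, RP23-76C10.2, RP24-407P8.1 and RP23-241J21.1. Their distances from Hspa8, over 4 libraries and on the centred log2(RPKM + 1) scale, ran from 0.02 to 0.08. For the nearest, RP23-299H4.3, the level was 204 and 393 RPKM in the KO-labelled libraries at 39.5 and 37 °C, against 260.2 and 665 RPKM in WT.

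These rows were chosen for a pattern like that of Hspa8, so their proportion to it is a description. RP23-299H4.3 had 0.830 and 0.845 of the Hspa8 RPKM in the KO-labelled libraries at 39.5 and 37 °C, and 0.847 and 0.837 in WT at those temperatures. The lengths that turn its RPKM into whole reads, and those of RP24-325G24.1, RP23-76C10.2 and RP24-407P8.1, equalled the length of an Hspa8 processed pseudogene. Of all rows, 30 (0.153%) had such a length. The reads of these 4 rows came to 88.8% and 92.3% of the Hspa8 reads with the KO label at 39.5 and 37 °C, and 91.3% and 89.6% in WT. How reads were shared between these rows and Hspa8 was not tested.

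**Figure D2:**
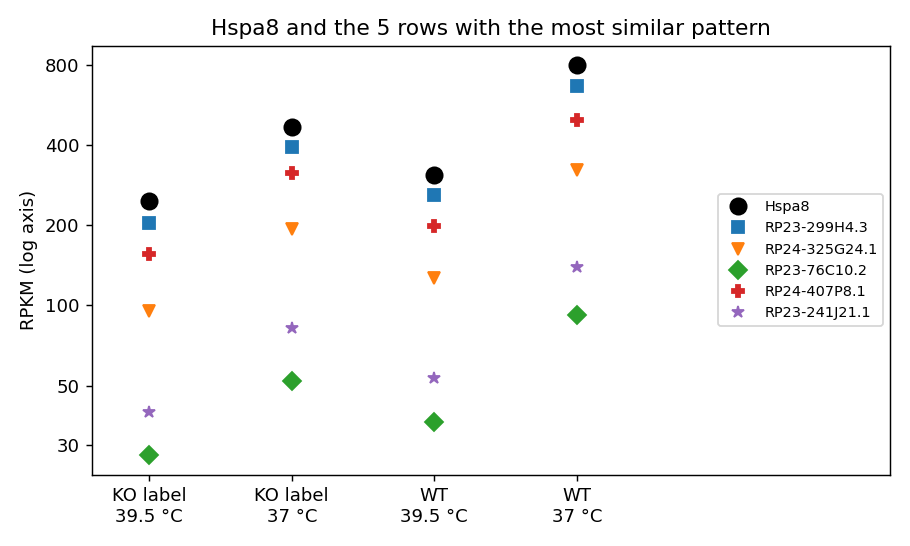
RPKM on a log axis of Hspa8 and the 5 rows nearest to it in pattern, with 1 point per library. All 6 are highest in WT at 37 °C and lowest in the KO-labelled library at 39.5 °C, and RP23-299H4.3 runs just under Hspa8.

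Hspa1a and Hspa1b encode the heat-inducible cytosolic HSP70 and lie close together on chromosome 17, at 34969190 to 34972156 and 34956436 to 34959238 on the minus strand of GRCm38. Both were at low levels in every library, at 39.5 °C as well as at 37 °C. Hspa1a was at 0.330 and 0.439 RPKM in the KO-labelled libraries at 39.5 and 37 °C (18 and 23 reads), against 0.489 and 0.703 RPKM in WT (28 and 38 reads). Hspa1b was at 0.639 and 0.809 RPKM in the same libraries with the KO label (33 and 40 reads), and at 1.27 and 1.35 RPKM in WT (69 and 69 reads). The copies shared 62.3% of the 50-base windows of Hspa1b and 58.8% of those of Hspa1a, so single reads are uncertain by gene. With the reads of both summed, the ratio of 39.5 to 37 °C was 0.776 (0.525 to 1.14) with the KO label and 0.855 (0.643 to 1.14) in WT, and the intervals include 1. The ratio of the KO-labelled library to WT was 0.551 (0.385 to 0.782) at 39.5 °C and 0.608 (0.438 to 0.838) at 37 °C.

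Promoter sequences are shown for the gene pair that heat is known to induce and for Hsph1, described further on, the member with the largest ratio between WT and the KO label at 37 °C. RefSeq windows on GRCm38.p6, reaching from 250 bases before to 50 after a transcript start, were found for 7 of the 10 genes; Hspa8, Hspa9 and Hsf1 had none. They were searched for heat shock elements, written as alternating GAA and TTC units 2 bases apart. The motif of 3 units is GAANNTTCNNGAA or TTCNNGAANNTTC and that of 2 units GAANNTTC or TTCNNGAA. Each 2-unit order is its own reverse complement and the 3-unit orders are reverse complements of each other, so both strands were covered. Every match to 3 units holds overlapping matches to 2. Capitals mark matches. The windows are chr17:34959239-34959388 for Hspa1b, chr17:34972157-34972306 for Hspa1a and chr5:149636286-149636435 for Hsph1, all on the minus strand. The Hspa1b and Hspa1a stretches end at the base before the transcript start, and the Hsph1 stretch holds 120 bases before it and the first 30 of the transcript.
Hspa1b: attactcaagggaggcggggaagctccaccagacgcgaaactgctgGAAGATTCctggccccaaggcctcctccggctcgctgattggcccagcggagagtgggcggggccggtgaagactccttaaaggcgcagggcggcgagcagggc
Hspa1a: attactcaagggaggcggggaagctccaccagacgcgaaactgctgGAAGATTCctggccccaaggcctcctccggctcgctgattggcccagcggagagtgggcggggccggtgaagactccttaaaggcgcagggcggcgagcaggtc
Hsph1: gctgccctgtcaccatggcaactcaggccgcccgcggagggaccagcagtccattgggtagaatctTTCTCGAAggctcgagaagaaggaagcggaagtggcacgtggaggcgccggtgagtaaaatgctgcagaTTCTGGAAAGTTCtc

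The Hspa1b and Hspa1a stretches differed at 1 of 150 bases, and each held a 2-unit match starting 104 bases before the transcript start. Hsph1 held a 3-unit match at bases 16 to 28 of the RefSeq transcript and a 2-unit match from 54 bases before that transcript's start. In GENCODE vM21 the Hsph1 gene begins farther upstream, at base 149636376, so the 2-unit match lies inside that gene's span. A second RefSeq start of Hsph1 places the same 3-unit match at bases 37 to 49. Of 32851 promoter windows, 0.603% held a 3-unit match and 15.1% a 2-unit match. Among the other members with a window, Bag3 had a 2-unit match 43 bases into the transcript, and Hspa4, Hspa4l and Hspa14 had none in these letters.

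Hsph1, on chromosome 5 at 149614287 to 149636376 (minus strand, GRCm38), encodes HSP105, the stress-inducible HSP110 that acts as an exchange factor for HSP70. Its level stood apart in WT at 37 °C. Hsph1 was at 11.3 and 12.4 RPKM in the KO-labelled libraries at 39.5 and 37 °C (1510 and 1590 reads). The WT libraries gave 18.0 RPKM at 39.5 °C and 40.2 at 37 °C (2525 and 5318 reads). The ratio of 39.5 to 37 °C was 0.910 (0.847 to 0.977) with the KO label and 0.448 (0.427 to 0.470) in WT. The ratio of the KO-labelled library to WT was 0.627 (0.588 to 0.669) at 39.5 °C and 0.309 (0.292 to 0.327) at 37 °C. Both of the larger differences involve the single WT library at 37 °C, which has no replicate. In the fit of all libraries, Hsph1 fell with the KO label (limma, log2 −1.12 ± 0.24 SE, adjusted p = 0.042, lower in 2 of 2 pairs), a call lost with no minimum mean (adjusted p = 0.104). Adjusted p ran from 0.0052 to 0.104 over the alternatives. With temperature its shared change was log2 −0.62 ± 0.24 (adjusted p = 0.352).

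Rows nearest to Hsph1 in pattern lay farther off than those nearest to Hspa8. They were Foxp1, Gm26825, RP23-350J23.1, AC107815.5 and Snord87, at distances of 0.46 to 0.56 over 4 libraries. Foxp1, which encodes a forkhead factor of T cell quiescence, was at 11.03 and 9.92 RPKM in the KO-labelled libraries at 39.5 and 37 °C, against 18.2 and 26.9 RPKM in WT. Gm26825 was at 7.83 and 10.5 RPKM with the KO label and at 17.8 and 45.0 RPKM in WT.

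Hspa4, on chromosome 11 at 53259814 to 53300457 (minus strand), encodes the constitutive HSP110 and was the most abundant HSP110 gene in every library. Hspa8, Hspa9 and Hspa4 held the first 3 places among the members in all 4 libraries, in that order. Hspa4 was at 35.4 and 32.0 RPKM in the KO-labelled libraries at 39.5 and 37 °C, against 48.3 and 51.1 RPKM in WT. Both libraries with the KO label thus lay below both WT libraries. Between temperatures, Hspa4 had a ratio of 39.5 to 37 °C of 1.11 (1.06 to 1.16) with the KO label and 0.945 (0.909 to 0.982) in WT. The ratio of the KO label to WT was 0.733 (0.702 to 0.765) at 39.5 °C and 0.625 (0.598 to 0.654) at 37 °C. Hspa4 fell with the KO label in the fit of all libraries (limma, log2 −0.55 ± 0.13 SE, adjusted p = 0.049, lower in 2 of 2 pairs). That call was lost with no minimum mean (adjusted p = 0.090) and without a variance trend (adjusted p = 0.059), within a range of 0.020 to 0.090 over the alternatives.

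Hspa4l, the third HSP110 gene, was the least abundant of them and had the highest RPKM ratio of 39.5 to 37 °C of the 10 genes in both genotypes. It was at 1.502 and 1.07 RPKM in the KO-labelled libraries at 39.5 and 37 °C (326 and 222 reads), against 3.13 and 1.76 RPKM in WT (712 and 378 reads). The ratio of 39.5 to 37 °C was 1.41 (1.18 to 1.68) with the KO label and 1.78 (1.57 to 2.02) in WT. The ratio of the KO label to WT was 0.480 (0.420 to 0.548) at 39.5 °C and 0.607 (0.512 to 0.718) at 37 °C. On the log2(RPKM + 1) scale these genotype differences were −0.72 and −0.42. Neither the temperature change (adjusted p = 0.322) nor the genotype change (adjusted p = 0.070) passed in limma. The genotype change passed by limma-voom on the recovered reads (adjusted p = 0.0090), within a range up to 0.120 over the 5 alternatives that kept the gene.

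Hspa9 encodes mortalin, the mitochondrial HSP70 that pulls proteins through the inner membrane and serves iron-sulphur cluster assembly. It was the second most abundant member throughout. Hspa9 was at 97.4 and 87.6 RPKM in the KO-labelled libraries at 39.5 and 37 °C, against 123 and 132 RPKM in WT. Both libraries with the KO label lay below both WT libraries, with ratios of 0.792 (0.767 to 0.817) at 39.5 °C and 0.665 (0.643 to 0.687) at 37 °C. The change with the KO label, log2 −0.46 ± 0.12 (SE), missed the threshold in limma (adjusted p = 0.067). It passed in 3 of the 6 alternatives, with adjusted p from 0.035 to 0.109. Between temperatures, the ratio of 39.5 to 37 °C was 1.11 (1.07 to 1.15) with the KO label and 0.933 (0.906 to 0.960) in WT. The pseudogene row Hspa9-ps1 was at 40.3 and 40.1 RPKM with the KO label and 51.2 and 53.8 RPKM in WT. Hspa9 was 2.42 and 2.18 times the level of Hspa9-ps1 with the KO label at 39.5 and 37 °C, and 2.40 and 2.45 times in WT. Hspa9-ps1 shared 6.53% of its 50-base windows with Hspa9.

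Hspa14 encodes an unusual HSP70 that works with the J protein DNAJC2 at the ribosome. Its level varied little, at 16.6 and 14.4 RPKM in the KO-labelled libraries at 39.5 and 37 °C and 18.3 and 17.6 RPKM in WT. The ratio of the KO label to WT was 0.909 (0.842 to 0.981) at 39.5 °C and 0.817 (0.752 to 0.887) at 37 °C, and the shared change did not pass (limma, log2 −0.20 ± 0.13 SE, adjusted p = 0.301). Dnajc2, its partner's gene, fell with the KO label (limma, log2 −0.70 ± 0.12 SE, adjusted p = 0.028). Dnajc2 was at 7.98 and 6.99 RPKM with the KO label at 39.5 and 37 °C, against 13.3 and 12.2 RPKM in WT.

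Hsf1, which encodes the heat-activated factor itself, and Bag3, which encodes a co-chaperone that steers HSP70 clients towards autophagy, differed by less than 1.5-fold in every pair. Hsf1 was at 15.3 and 12.01 RPKM in the KO-labelled libraries at 39.5 and 37 °C, against 13.3 and 14.4 RPKM in WT. Bag3 was at 17.2 and 13.2 RPKM with the KO label and 14.3 and 14.0 RPKM in WT. For both genes the KO-labelled library at 39.5 °C was the highest and the one at 37 °C the lowest. The ratio of 39.5 to 37 °C in Hsf1 was 1.28 (1.19 to 1.36) with the KO label and 0.924 (0.866 to 0.986) in WT. For Bag3 it was 1.30 (1.17 to 1.45) with the KO label and 1.03 (0.921 to 1.14) in WT. RNA levels do not report the activity of HSF1, which is set on the protein.

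By temperature, the members differed in direction. Hspa8 and Hsph1 were 2-fold lower at 39.5 °C in WT, while Hspa4l, Hspa14 and Bag3 had ratios above 1 in both genotypes. Those of Hspa14 were 1.15 with the KO label and 1.04 in WT. The WT intervals of Hspa14 and Bag3 included 1. Calls by size were made on the log2(RPKM + 1) scale. In the KO-labelled libraries, 0 of the 9 members tested were at least 2-fold higher or lower at 39.5 °C, where 0.751% of all rows were higher and 0.911% lower. In WT, Hspa8 and Hsph1 were at least 2-fold lower and 0 members higher, against 0.525% of rows lower and 1.46% higher. The median log2 ratio of the 9 members was 0.15 with the KO label and −0.08 in WT, and that of all rows −0.01 and −0.02. With the KO label 3 members lay below 0 (51.3% of all rows did), and in WT 6 did (53.5% of rows). At a rule of 1.5-fold, Hspa8 was lower with the KO label (3.81% of rows lower, 3.31% higher), and Hspa8 and Hsph1 were lower in WT (2.6% lower, 5.32% higher). Hspa8, Hspa1b and Hsph1 were below 0 in both genotypes, as were 32.7% of all rows. In the fit of all libraries 0 members passed for temperature (limma), where 0.0146% of rows rose and 0.00729% fell; at unadjusted p under 0.05, Hspa4l was higher (7.17% of rows) and Hspa8 and Hsph1 lower (6.79% of rows). By limma-voom on the recovered reads Hspa8 passed.

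**Figure D3:**
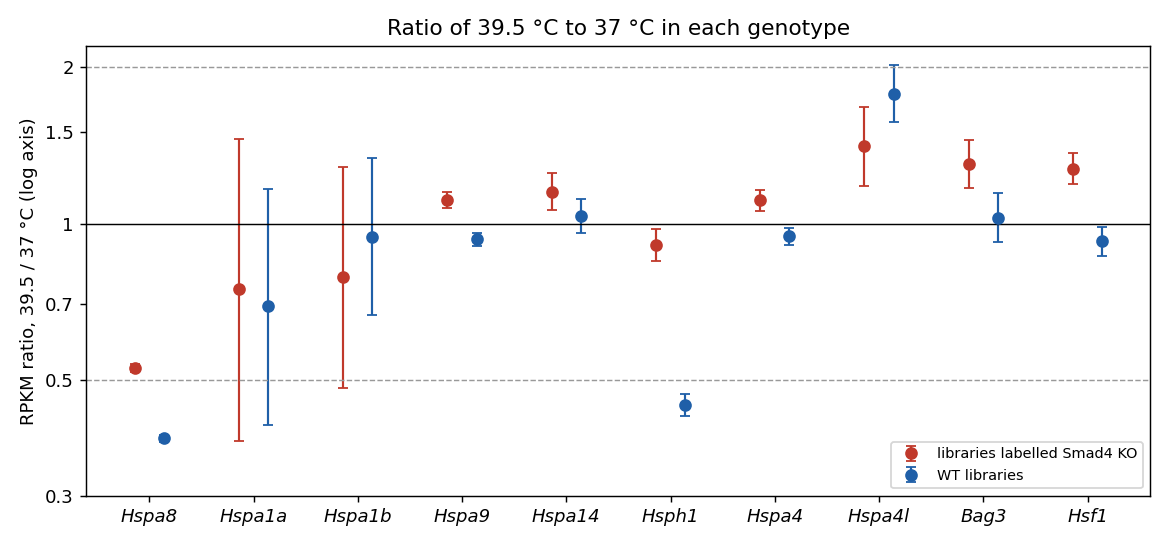
Ratio of RPKM at 39.5 °C to 37 °C (log axis) for each gene, in the KO-labelled libraries and in the WT libraries, with 95% counting intervals; dashed lines mark ratios of 0.5 and 2. Hspa8 lies low in both genotypes (0.527 and 0.387), and Hsph1 lies low in WT (0.448) but near 1 with the KO label (0.910).

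By genotype, most members were lower with the KO label. At 37 °C all 9 members tested lay below 0, with log2 ratios from −1.62 in Hsph1 to −0.08 in Bag3 and a median of −0.42, where 51.1% of all rows lay below 0 and the median was −0.01. At 39.5 °C 7 lay below 0 and Bag3 and Hsf1 above, with a median of −0.33 against 0.00 for all rows, of which 49.7% lay below 0. The 7 that lay below 0 at both temperatures were all the HSP70 and HSP110 genes tested. Of all rows, 38.0% lay below 0 at both. The pairs share no library, but nothing states that the libraries came from separate animals or cultures. At the 2-fold rule, Hsph1 was lower at 37 °C, against 1.14% of rows lower and 4.7% higher. At 39.5 °C 0 members were 2-fold lower or higher on the log2(RPKM + 1) scale, against 1.05% and 2.3% of rows. The plain RPKM ratio of Hspa4l in that pair was 0.480. At 1.5-fold, Hsph1 and Hspa4l were lower at 39.5 °C (6.38% of rows lower, 9.06% higher), and Hsph1, Hspa8 and Hspa4 at 37 °C (7.35% lower, 11.5% higher). In limma 2 of 9 members, Hsph1 and Hspa4, fell and 0 rose, where 4.7% of all rows fell and 8.57% rose; at unadjusted p under 0.05 it was 6 and 0, against 15.6% and 19.0% of rows. These p-values set a change against the interaction and a trend over all genes, with 1 residual degree of freedom, and not against a spread between animals.

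**Figure D4:**
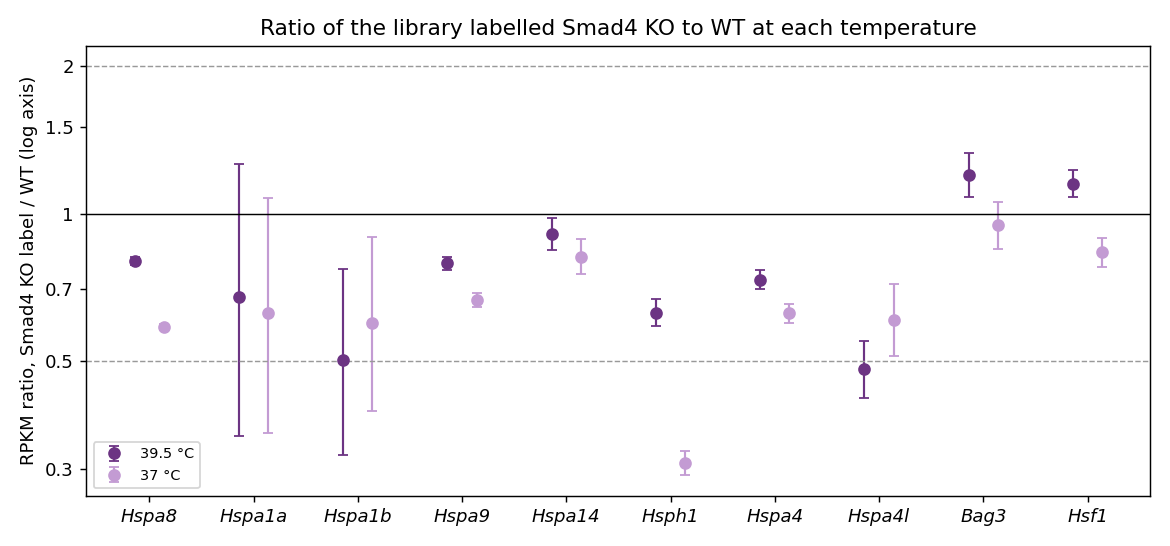
Ratio of RPKM in the KO-labelled library to WT (log axis) at 39.5 °C and at 37 °C, with 95% counting intervals; dashed lines mark ratios of 0.5 and 2. The 8 HSP70 and HSP110 genes lie below 1 at both temperatures, with the lowest ratio in Hsph1 at 37 °C (0.309), while Bag3 and Hsf1 lie on either side of 1.

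The response to temperature was set against genotype by the difference of the log2 ratios, KO label minus WT. It was 0.99 in Hsph1, just under the 2-fold rule, and 0 members passed, where 0.671% of rows were higher and 1.55% lower. Without a pseudocount, the temperature ratio of Hsph1 with the KO label was 2.03 times that in WT (95% counting interval 1.87 to 2.21). For Hspa8 this ratio of ratios was 1.36 (1.33 to 1.39) and for Hsf1 1.38 (1.26 to 1.51). The difference was negative in Hspa4l (−0.31) and Hspa1b (−0.09) and positive in the other 7 members tested, and it was below 0 in 50.4% of all rows. At 1.5-fold Hsph1 passed, against 3.85% of rows higher and 5.97% lower. With 1 library a group the difference has no test.

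When levels were summed over genes, the balance of HSP110 to cytosolic HSP70 RNA was higher at 39.5 °C than at 37 °C in both genotypes. Hspa8, Hspa1a and Hspa1b together came to 246 and 467 RPKM in the KO-labelled libraries at 39.5 and 37 °C, against 309 and 797 RPKM in WT. Hsph1, Hspa4 and Hspa4l together came to 48.2 and 45.4 RPKM with the KO label, against 69.4 and 93.1 RPKM in WT. The ratio of the HSP110 sum to the HSP70 sum was 0.196 at 39.5 °C and 0.0973 at 37 °C with the KO label, and 0.225 and 0.117 in WT. Nearly all of the HSP70 sum was Hspa8. That sum leaves out the 4 rows of pseudogene length, whose reads came to 88.8% to 92.3% of the Hspa8 reads. Their bearing on the ratio was not tested. These sums have no test. Within the HSP110 sum, Hsph1 made up 23.4% and 27.3% with the KO label at 39.5 and 37 °C, against 25.9% and 43.2% in WT.

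**Figure D5:**
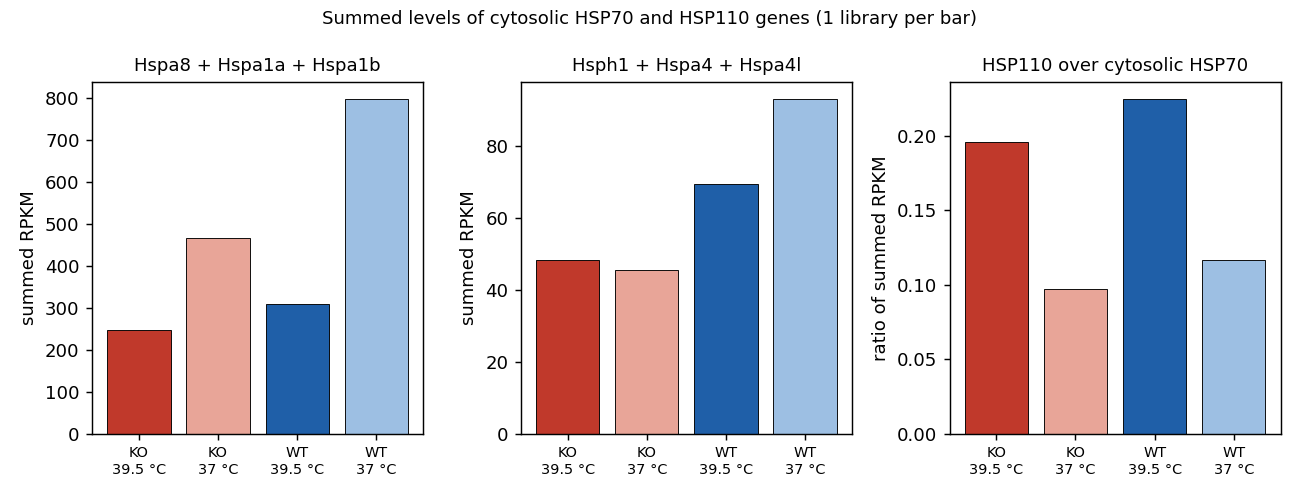
Summed RPKM of the cytosolic HSP70 genes (left), of the HSP110 genes (middle) and the ratio of the HSP110 sum to the HSP70 sum (right), with 1 library per bar and no error. The ratio is 0.196 and 0.225 in the libraries at 39.5 °C and 0.0973 and 0.117 in those at 37 °C.

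Partner genes gave a background for these values, from lists without a test of their own. Of 22 co-chaperone and exchange factor genes tested, 0 were 2-fold changed in any pair on the log2(RPKM + 1) scale. Per pair and direction, 0.525% to 4.7% of all rows were. As a plain ratio of RPKM, Dnaja1 was more than 2-fold lower with the KO label at 37 °C (0.495 of WT). With the KO label 2 of these genes fell in limma, Dnaja1 and Dnajc2, and 0 rose, where 4.7% of all rows fell and 8.57% rose. Dnaja1, a J protein that feeds clients to HSC70, was at 3.13 and 3.14 RPKM with the KO label at 39.5 and 37 °C, against 5.16 and 6.35 RPKM in WT (log2 −0.70 ± 0.14 SE, adjusted p = 0.035). The median log2 ratio of that list at 39.5 over 37 °C was −0.06 with the KO label and −0.18 in WT. Of 16 partners of mitochondrial HSP70, 4 lay below 0 with temperature with the KO label and 13 in WT, with medians of 0.06 with the KO label and −0.12 in WT. Of all rows, 51.3% lay below 0 with the KO label and 53.5% in WT. By genotype, 1 of them, Hspd1, which encodes HSP60, fell with the KO label in limma (log2 −0.79 ± 0.13 SE, adjusted p = 0.025), against the same 4.7% of all rows. Hspd1 was at 60.7 and 53.5 RPKM with the KO label, against 95.1 and 104 RPKM in WT. The exchange factor gene Grpel1 was at 22.9 and 22.7 RPKM with the KO label and 26.6 and 28.9 RPKM in WT.

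Of 24 HSF1 target genes listed outside the HSP70 family, 22 were among the rows and 18 reached the mean of 1 RPKM. The median log2 ratio of these 18 at 39.5 over 37 °C was −0.01 with the KO label and −0.19 in WT. With the KO label 10 lay below 0 (51.3% of all rows did), and in WT 16 did (53.5%). By genotype, 5 of the 18 fell and 0 rose in limma, where 4.7% of all rows fell and 8.57% rose. They were Hsp90aa1, Hspd1, Dnaja1, Cacybp and Ptges3. This list shares genes with the partner lists above, and Dnaja1 and Hspd1 were already counted there. Hsp90aa1, the inducible HSP90 gene, was at 26.5 and 26.7 RPKM with the KO label at 39.5 and 37 °C, against 47.4 and 52.3 RPKM in WT (log2 −0.88 ± 0.12 SE, adjusted p = 0.018). Cacybp, whose product binds SIAH1, was also 2-fold lower at 37 °C, at 14.3 and 13.5 RPKM with the KO label and 26.7 and 31.8 RPKM in WT (log2 −1.01 ± 0.14 SE, adjusted p = 0.017). Ier5, an immediate-early gene whose product binds HSF1, was 2-fold higher with the KO label at 37 °C, at 38.4 RPKM against 18.4 RPKM in WT. Ier5 passed neither the 2-fold rule for genotype at 39.5 °C nor the limma test for genotype. The 13 HSF family and regulator genes tested had median log2 ratios of 0.13 with the KO label and 0.16 in WT for temperature. Hsf2, a second factor of the family, was at 1.05 and 1.26 RPKM with the KO label, against 2.33 and 1.99 RPKM in WT.

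Of 7 other HSP70 family genes listed, 4 could be tested. At 39.5 °C 3 of them lay below 0 with the KO label (51.3% of all rows did) and 2 in WT (53.5%). Their median log2 ratios were −0.45 with the KO label and −0.23 in WT. Hspa5, which encodes the endoplasmic reticulum chaperone BiP, was at 123 and 201 RPKM with the KO label at 39.5 and 37 °C, against 159 and 233 RPKM in WT. Hyou1, its HSP110-like exchange factor, was at 59.8 and 97.5 RPKM with the KO label and 60.2 and 89.3 RPKM in WT. Neither passed for temperature in limma (adjusted p = 0.131 for Hspa5 and 0.138 for Hyou1). Hspa2, a testis-enriched HSP70, was at 1.36 and 0.729 RPKM with the KO label and 1.18 and 1.06 RPKM in WT. Hspa13, a microsome-associated HSP70, was at 1.41 and 1.78 RPKM with the KO label and 2.61 and 1.95 RPKM in WT. All 6 genes of an ER chaperone list, Hspa5 again among them, lay below 0 at 39.5 °C in both genotypes, as did 32.7% of all rows. The list had medians of −0.79 with the KO label and −0.60 in WT. Its adjusted p for temperature in limma ran from 0.071 to 0.427, so none passed, though Creld2 was 2-fold lower in both pairs. All 5 proliferation markers lay above 0 at 39.5 °C in both genotypes, with medians of 0.44 with the KO label and 0.88 in WT. Below 0 lay 51.3% of all rows with the KO label and 53.5% in WT. By genotype, all 5 markers lay below 0 with the KO label at 39.5 °C (median −0.38) and 3 of 5 at 37 °C (median −0.02). Of all rows, 49.7% did so at 39.5 °C and 51.1% at 37 °C. The summed Th17 markers were also higher at 39.5 °C in both genotypes and lower with the KO label at both temperatures. The part of these lists in the values of Hspa8 and the other members was not tested.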

How the data were processed

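The members and the gene lists were chosen with earlier results of these data known. Per the series' design text, the authors deposited RPKM values (reads scaled for exon length and library size). Per the submitters' processing notes, the authors used edgeR, featureCounts (Subread), Bowtie2 and Trim Galore 0.4.4 with the mm10 build; settings and annotation release were not given in the sources used here. Groups were taken from the sample titles; nothing states that libraries came from separate animals or cultures. Library sizes and whole reads were recovered from the RPKM values and GENCODE vM21 (GRCm38) exon lengths: 12053 of 13143 rows matched by name (91.7%) were whole in all 4 libraries within 0.01 reads, and other rows, Hspa9 among them, took the shortest length that gave whole reads. Ratios carry exact Clopper-Pearson 95% intervals conditional on the pair's summed reads (scipy 1.17.1). No molecular identifiers are described, so PCR copies may count more than once and the intervals cover counting error only.

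Values were compared as log2(RPKM + 1) for the 13715 rows whose mean reached 1 RPKM. Single libraries were compared by a 2-fold limit, without p-values; this scale understates changes of low genes. Changes shared by both pairs were tested with limma 3.58.1 (R 4.3.3, temperature and genotype as terms, variance trend, Benjamini-Hochberg adjusted p under 0.05, 1 residual degree of freedom), a script tested on simulated data. The named genes are the 10 members, Smad4, genes of the pathway lists past a 2-fold or limma call (at most 6 a list) and the 5 rows nearest to Hspa8 and to Hsph1 by Euclidean distance of centred values. Others named from the lists were chosen after their values were seen. Promoter windows are RefSeq's on GRCm38.p6.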

Additional observations from a re-analysis of the deposited data

Results flagged for a closer look

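Hspa9, Hspa4 and Hsf1 differed with temperature in opposite directions in the genotypes. Each counting interval lay on its own side of 1 at the library sizes behind the RPKM values. With 1 pair of libraries per genotype the difference was not tested. The ratio of 39.5 to 37 °C for Hspa9 was 1.11 with the KO label and 0.933 in WT. For Hspa4 it was 1.11 with the KO label and 0.945 in WT. For Hsf1 it was 1.28 with the KO label and 0.924 in WT. The WT values depend on the scaling. Scaled to total recovered reads, the WT log2 ratios were −0.03 for Hspa9, −0.01 for Hspa4 and −0.04 for Hsf1. With the KO label they were 0.21, 0.20 and 0.38 in the same order. No intervals are given at that scaling.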

How the results depend on the processing

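No member changed direction in any pair under 3 other scalings. No change of the 9 members fitted reversed in limma under the 6 alternatives. The minimum mean and the variance trend alter p-values but not the fitted log2 change, so those alternatives could not reverse a direction. Trimmed mean of M values scaling left ratios almost as deposited. For Hspa8 with temperature and the KO label, log2 was −0.9220 against −0.9219. Hspa1a was not fitted, and Hspa1b and Hspa4l have no value at a minimum mean of 5 RPKM. At a 1.5-fold rule, counts of members became 1 for temperature with the KO label (main 0), 2 and 3 for genotype at 39.5 and 37 °C (main 0 and 1) and 1 for the difference (main 0). With a pseudocount of 0.1 RPKM, 1 member passed for genotype at 39.5 °C and 1 for the difference. For the shared temperature change, 1 member passed with a minimum mean of 5 RPKM, with upper quartile scaling and with limma-voom (main 0). For the shared genotype change, 0 members passed with no minimum mean and 1 without a variance trend (main 2). With a minimum mean of 5 RPKM 4 passed, and 4 with upper quartile scaling (Hspa8 and Hspa9 added in both). With limma-voom 5 passed (Hspa4l added as well). The cause was not tested. Shares of all rows are not given here for the limma alternatives or the 0.1 RPKM pseudocount, so those counts have no background. The quasi-likelihood test planned on recovered reads was left out; limma-voom was run on them instead, and trimmed mean of M values scaling was computed directly from the recovered reads. Leaving out a library leaves no residual degrees of freedom and so no test. No paired analysis was possible because each group has 1 library, so there are no replicates to block on by number; limma compared each factor within the levels of the other. Depth limits Hspa1a and Hspa1b, with 18 to 69 reads per library.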
